A study of Homo sapiens with 4 samples.

Results

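The RNA of 10 heat shock protein genes was examined in 2 hepatocellular carcinoma cell lines grown at low or high glucose. The genes were HSPA1A, HSPA1B, HSPA8, HSPA4L, HSPH1, HSP90AA1, HSPB1, DNAJB1, BAG3 and HSPE1, chosen by name, and all 10 were found among the 59652 genes of the count table. Huh7 and PLC (PLC/PRF/5) are human liver tumour lines. Both carried the wild-type genotype and both were held for 48 h in glucose-free DMEM with FBS, to which glucose was returned at 5 mM or at 25 mM. Total RNA was depleted of rRNA and sequenced with strand information, with 1 library for each line and glucose level, so 4 libraries in all and no replicate cultures. The question put to these genes is whether their RNA level differed between the glucose levels in each line, and between the lines.

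Heat shock proteins are chaperones that bind unfolded or newly made proteins and help them to fold. The HSP70 proteins work in a cycle driven by ATP, in which J-domain proteins such as DNAJB1 deliver the client and start ATP hydrolysis, and nucleotide exchange factors such as HSPH1 and BAG3 release it. HSP90 then takes over many kinases and nuclear receptors, and small heat shock proteins such as HSPB1 hold unfolded proteins without using ATP. The stress-inducible members are under the control of heat shock factor 1 (HSF1), which binds repeats of the letters GAA in their promoters. HSPE1 is the exception to the cytosolic label, since its protein is the co-chaperonin of HSPD1 in mitochondria, and it is kept here as listed.

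The libraries held 16049686 to 30279716 counted reads, and the 10 genes took 0.322% to 0.427% of them. Between 211 and 60936 reads stood behind each value of a member, so 0 of the 10 members had fewer than 100 reads in any library. All 10 passed, in both lines, the filter on FPKM (reads scaled by gene length and by the total of counted reads), which asks for a value over 0.5 in at least 1 library of the line. The hepatocyte character of the lines was checked with 10 marker genes. In Huh7 cells all 10 were over 0.5 FPKM, as were 9 of 10 in PLC cells, where TTR had 4 and 0 reads. The summed FPKM of the 10 markers was 5234 (5 mM) and 5436 (25 mM) in Huh7 cells, against 766 (5 mM) and 1656 (25 mM) in PLC cells, so the summed marker level in PLC cells moved with glucose; its part in the results below was not tested. Fewer cells of a kind and less RNA per cell cannot be told apart in such bulk libraries.

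Matches to the heat shock element, found in promoters of most but not all of these genes, are shown first. RefSeq promoters (GRCh38.p14, 250 bases before to 50 bases after the start site) were found for all 10 members, with 15 promoters in total. The letters GAANNTTC or TTCNNGAA, which make up 2 facing units of the element and read the same on both strands, occurred in 8 of the 15 promoters and in 7 of the 10 genes. Among all 35116 promoters, 13.5% held them. The form with 3 alternating GAA and TTC units, each 2 bases apart, contains the shorter motif and occurred in the promoters of HSP90AA1 and HSPA8 and in 0.490% of all promoters. For HSP90AA1 and DNAJB1, which hold more than 1 match, a single match is shown. Each sequence is given 5′ to 3′ on the strand of its gene, with the motif in capitals.
HSPA1A: cgaaaaccctgGAATATTCccgacctggca
HSPA1B: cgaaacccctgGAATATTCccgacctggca
HSPA8, distal: ggcgagcttGAAAGTTCCAGAAcgctgcgg
HSPA8, proximal: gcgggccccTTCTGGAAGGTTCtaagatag
HSP90AA1: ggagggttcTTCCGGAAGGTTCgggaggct
HSPB1: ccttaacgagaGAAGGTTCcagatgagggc
DNAJB1: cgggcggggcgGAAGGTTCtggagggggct
HSPA4L: tttccagatctTTCTCGAAcccgcagcttc

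The window of HSPA1A lies at chr6:31815426-31815455 (plus strand) and that of HSPA1B at chr6:31827622-31827651 (plus strand), and both carry the same motif in nearly the same flank, which begins at positions -106 and -105 from their start sites. HSPA8 has its distal window at chr11:123062346-123062375 and its proximal window at chr11:123062171-123062200 (both minus strand). The window of HSP90AA1 is at chr14:102087112-102087141 (minus strand) and its motif begins at position -88. HSPB1 has its window at chr7:76302480-76302509 (plus strand), DNAJB1 at chr19:14518456-14518485 (minus strand) and HSPA4L at chr4:127782141-127782170 (plus strand), the last in only 1 of its 3 promoters. BAG3, HSPE1 and HSPH1 held no such letters in these windows. A match of letters is a description of the promoter and was not measured as binding.

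**Figure D1:**
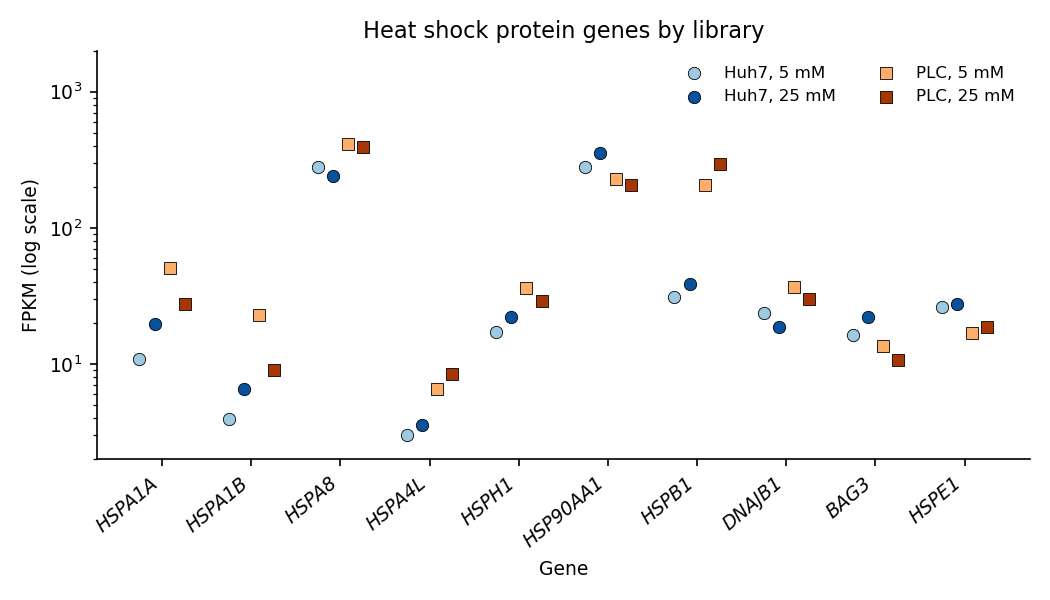
Level of each of the 10 heat shock protein genes in each library, as FPKM on a log axis; circles are Huh7 cells and squares PLC cells, pale at 5 mM and dark at 25 mM glucose, with 1 library per point. HSPA8 and HSP90AA1 lie above 200 FPKM in all 4 libraries, and HSPB1 does so only in PLC cells.

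The members differed widely in level. HSPA8, the constitutive HSP70, and HSP90AA1, the inducible cytosolic HSP90, were the highest pair in Huh7 cells at both glucose levels. In PLC cells HSPA8 was first, and HSPB1 joined HSP90AA1 behind it. HSPA4L was the lowest member in all 4 libraries, at 3.02 to 8.50 FPKM. Among 19161 protein-coding genes, HSPA8 ranked between 21 and 78, and HSPA4L between 5030 and 8226. These ranks rest on the gene lengths of the table, which hold all exons. With the length of the canonical transcript instead, among other shifts, HSPE1 passed HSPB1 in Huh7 cells, HSPB1 passed HSP90AA1 in PLC cells at 5 mM, and HSPA1B (9.04 FPKM) in place of HSPA4L (9.16 FPKM) was the lowest member in PLC cells at 25 mM.

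HSPA1A and HSPA1B, which encode the same stress-inducible HSP70, gave the largest glucose ratios of the 10 genes, and the ratios pointed in opposite directions in the 2 lines. HSPA1A is an intronless gene at chr6:31815543-31817946 (hg38). Its level was 10.9 FPKM (562 reads) in Huh7 cells at 5 mM and 19.6 FPKM (1420 reads) at 25 mM, against 50.5 FPKM (3678 reads) in PLC cells at 5 mM and 27.7 FPKM (1067 reads) at 25 mM. Both PLC libraries lay above both Huh7 libraries, with PLC cells at 5 mM highest and Huh7 cells at 5 mM lowest. The ratio of 25 mM to 5 mM was 1.79 in Huh7 cells (95% interval for counting error 1.63 to 1.98) and 0.548 in PLC cells (0.511 to 0.586).

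HSPA1B, an intronless gene at chr6:31827738-31830254, had 3.92 FPKM (211 reads) and 6.51 FPKM (493 reads) in Huh7 cells, against 22.8 FPKM (1734 reads) and 9.04 FPKM (365 reads) in PLC cells, at 5 mM and 25 mM. The order of the 4 libraries was that of HSPA1A. The ratio was 1.64 in Huh7 cells (1.41 to 1.96), against 0.40 in PLC cells (0.354 to 0.445). In Huh7 cells the lower bound for HSPA1B lies below the threshold of 1.5.

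The reads of these genes cannot be assigned with certainty. Of the 2374 windows of 31 bases in HSPA1A, 76.7% occur elsewhere in the genome, and all of these are shared with HSPA1B. HSPA1B also shares 920 of its exon bases (36.6%) with the annotated gene AL671762.1 on the same strand, which had 0 reads in every library. The FPKM ratio of HSPA1A to HSPA1B was 2.79, 3.02, 2.22 and 3.06 in the order of libraries above, so the split was not constant. Summed as 1 gene, the pair gave a ratio of 1.75 in Huh7 cells (1.62 to 1.91), against 0.50 in PLC cells (0.471 to 0.529), with the same directions as each copy.

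A comparison inside each library does not depend on its depth or scaling. The FPKM of HSPA1A and HSPA1B together was 5.32% of that of HSPA8 in Huh7 cells at 5 mM (4.94 to 5.71) and 11.0% at 25 mM (10.5 to 11.5). In PLC cells it was 17.7% at 5 mM (17.2 to 18.2) and 9.31% at 25 mM (8.83 to 9.82). The share of the inducible genes was therefore higher at 25 mM in Huh7 cells and lower at 25 mM in PLC cells, beyond counting error in both. With canonical transcript lengths the shares were 2.48%, 5.13%, 8.25% and 4.35%, in the same order.

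**Figure D2:**
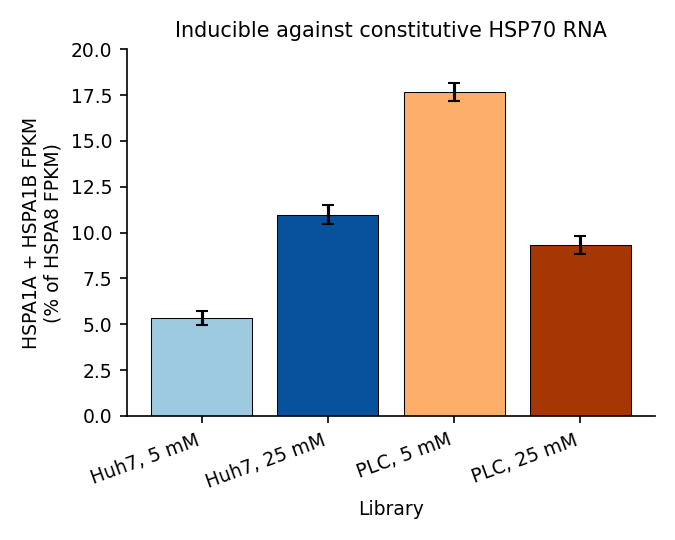
Summed FPKM of HSPA1A and HSPA1B as a percent of the FPKM of HSPA8, for each library; bars give the percent and whiskers the exact 95% interval for counting error. From left to right, the share is 5.32%, 11.0%, 17.7% and 9.31%.

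The other members stayed within the thresholds of 1.5 and 0.67 in both lines. Among the HSP70 genes, HSPA8 (chr11:123057489-123063230), which folds proteins in unstressed cells, had 280 and 238 FPKM in Huh7 cells, against 415 and 394 FPKM in PLC cells at 5 mM and 25 mM. Its ratio was 0.853 (0.839 to 0.866) in Huh7 cells, against 0.949 (0.936 to 0.962) in PLC cells, lower at 25 mM in both. At 28975 to 60936 reads per library, this small difference lay outside counting error. HSPA4L (chr4:127781821-127840733), a member of the HSP110 branch of the family, had 3.02, 3.55, 6.59 and 8.50 FPKM in the same order. It was higher at 25 mM in both lines, with ratios of 1.17 (1.07 to 1.29) and 1.28 (1.21 to 1.38).

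HSPH1 (chr13:31134973-31162388), the HSP110 protein that exchanges the nucleotide of HSP70, had 17.0 and 22.0 FPKM in Huh7 cells, against 36.4 and 28.8 FPKM in PLC cells. Its ratios, 1.29 (1.24 to 1.35) and 0.793 (0.763 to 0.823), pointed the same way as those of HSPA1A. BAG3 (chr10:119651380-119677819), which links HSP70 to selective autophagy, had 16.3 and 22.3 FPKM in Huh7 cells, against 13.5 and 10.7 FPKM in PLC cells. Its ratios were 1.36 (1.26 to 1.48) and 0.799 (0.715 to 0.889). BAG3 and HSPH1 have almost no repeated windows, 0% and 0.558%, so few of their reads could come from another copy.

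HSP90AA1 (chr14:102080742-102139699) had 279 and 352 FPKM in Huh7 cells, against 228 and 206 FPKM in PLC cells. Its ratio was 1.26 (1.25 to 1.28) in Huh7 cells, against 0.905 (0.889 to 0.922) in PLC cells. Set against HSP90AB1, its constitutive counterpart, the FPKM of HSP90AA1 in Huh7 cells was 60.4% under low glucose and 73.1% under high glucose. In PLC cells this share was 37.1% and 36.7%, with overlapping intervals (36.6 to 37.6 and 36 to 37.4). In HSP90AA1, 34.3% of windows are repeated in the genome, and 197 of its exon bases face WDR20 on the opposite strand.

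DNAJB1 (chr19:14514769-14529770), the HSP40 that brings clients to HSP70, had 23.6 and 18.7 FPKM in Huh7 cells, against 36.9 and 29.8 FPKM in PLC cells. It was lower at 25 mM in both lines, by ratios of 0.791 (0.741 to 0.842) and 0.808 (0.763 to 0.854). It shares 192 exon bases with TECR on the opposite strand. In Huh7 cells DNAJB1 and HSPA1A, both known targets of HSF1, thus lay on opposite sides of 1.

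HSPB1 (chr7:76302673-76304295), the small heat shock protein HSP27, had 31.2 and 38.8 FPKM in Huh7 cells, against 207 and 295 FPKM in PLC cells. It was higher at 25 mM in both lines, with ratios of 1.24 (1.15 to 1.34) and 1.42 (1.38 to 1.47). HSPE1 (chr2:197500140-197503449) had 26.3 and 27.5 FPKM in Huh7 cells, against 16.8 and 18.6 FPKM in PLC cells. Its intervals held 1 in both lines, at ratios of 1.04 (0.964 to 1.13) and 1.11 (0.994 to 1.23). With TMM scaling the ratio of HSPE1 in PLC cells was 0.988, and it was 0.973 after removal of a trend with GC content and gene length, so it has no direction there. Pseudogenes of HSPE1 held reads equal to 13.9% to 24.1% of those of HSPE1.

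**Figure D3:**
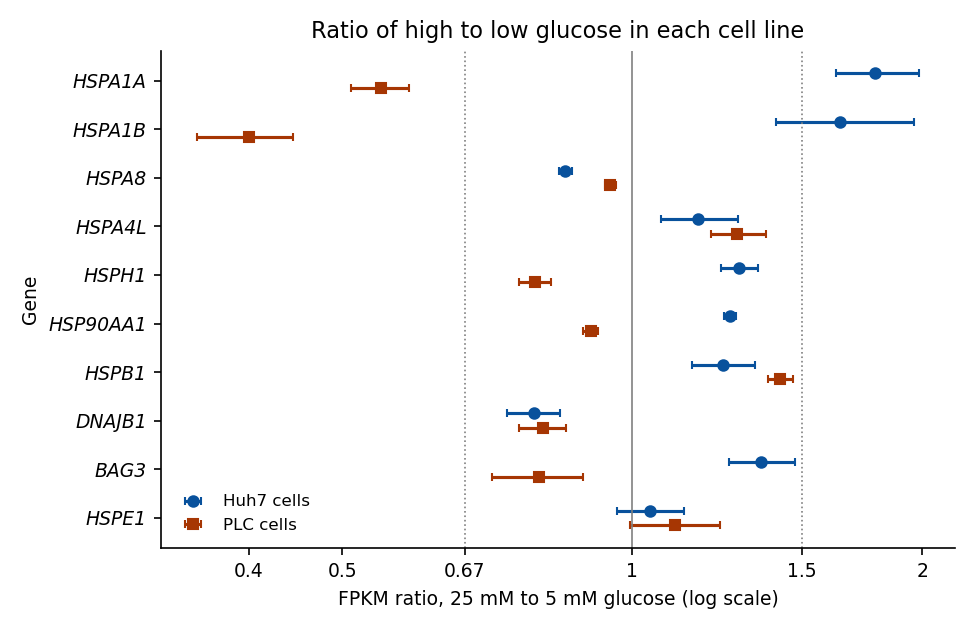
FPKM ratio of 25 mM to 5 mM glucose for each gene on a log axis, in Huh7 cells (circles) and PLC cells (squares), with exact 95% intervals for counting error as whiskers; dotted lines mark 0.67 and 1.5. HSPA1A and HSPA1B lie past the dotted lines on opposite sides in the 2 lines, and the other 8 genes lie between them.

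Counted over the 10 genes, HSPA1A and HSPA1B were called higher at 25 mM in Huh7 cells and 0 were called lower, where 14.1% of all 21864 genes were called higher and 13.7% lower (5.91% and 5.71% of protein-coding genes). In PLC cells the same 2 genes were called lower and 0 were called higher, beside 17.0% and 26.2% of all 21749 genes (11.5% and 18.8% of protein-coding genes). Both calls together, over 1.5 in Huh7 cells and under 0.67 in PLC cells, were met by 2.23% of the 18108 genes past the filter in both lines and by 22 of 10601 protein-coding genes (0.208%). HSPA1A and HSPA1B were among 8 of these 22 that had at least 100 reads in every library.

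By counting error alone, 5 members (HSPA1A, HSPA1B, HSPH1, HSP90AA1 and BAG3) had an interval above 1 in Huh7 cells and below 1 in PLC cells, a pattern of 5.06% of all genes and 7.86% of protein-coding genes. HSPA4L and HSPB1 lay above 1 in both lines (14.0% of all genes), and HSPA8 and DNAJB1 below 1 in both (8.58%). 0 members showed the reverse of the first pattern, which 5.17% of all genes had. Such intervals narrow as reads rise, and these background shares are not matched to the read depth of the members. The 5 members were the same with TMM scaling, with the size factors of DESeq2 and after removal of the GC and length trend. With HSPA1A and HSPA1B summed as 1 gene, 4 of 9 had the pattern. The median log2 ratio of the 10 members was 0.33 in Huh7 cells, against -0.23 in PLC cells, beside 0.04 and 0.11 for all genes. TMM scaling moved the median of all genes in PLC cells by -0.16, to -0.05, and that of the members to -0.39. No test of the difference between the lines was possible, since the model with an interaction uses up all 4 libraries.

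**Figure D4:**
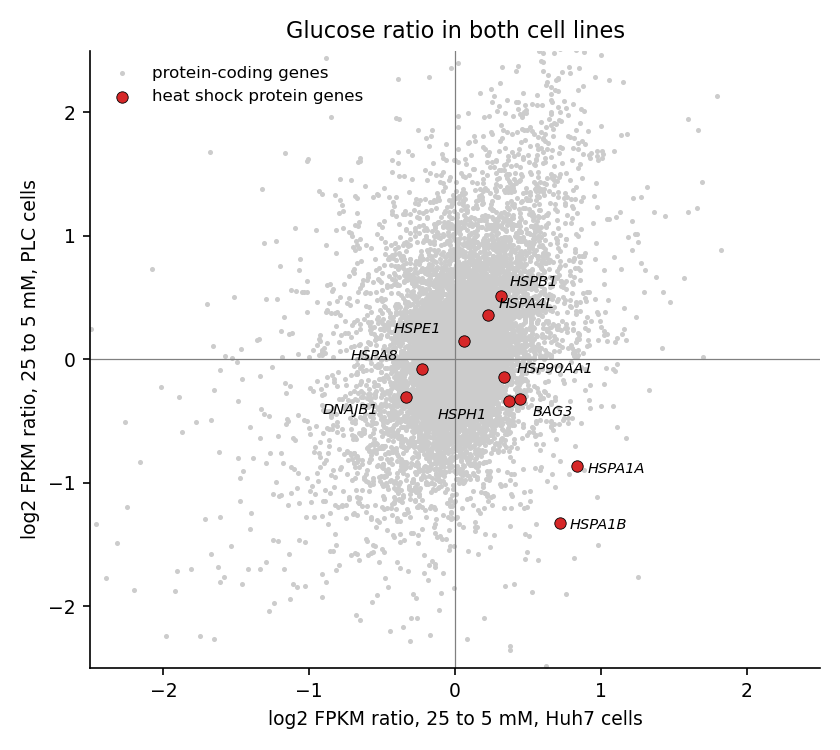
log2 FPKM ratio of 25 mM to 5 mM in Huh7 cells (x axis) against PLC cells (y axis); red points are the 10 heat shock protein genes and grey points protein-coding genes past the FPKM filter in both lines, of which 73 of 10601 lie outside the axes. HSPA1A and HSPA1B lie at the lower right, apart from most grey points, while HSPA8, DNAJB1, HSPE1, HSPA4L and HSPB1 lie within the main cloud.

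Whether both lines shared a glucose change was asked with edgeR, with the line as a block. Such a change was found for 88 of 23217 genes (0.379%) and for 0 of the 10 members. At an unadjusted p under 0.05 the model called 1975 genes (8.51%), again with 0 members. DNAJB1 came closest, at a log2 fold change of -0.40 (SE 0.22, adjusted p = 0.703 by edgeR), lower in both lines. HSPB1 followed, at 0.33 (SE 0.20, adjusted p = 0.761 by edgeR), higher in both. For HSPA1A the shared log2 fold change was -0.10 (SE 0.35), with the ratios of the lines on opposite sides of 1. DESeq2 and limma-voom also called 0 members.

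Between the lines, most members differed. FPKM values of the lines did not overlap for any of the 10 members, 7 being higher in PLC cells and 3 in Huh7 cells, beside 33.0% and 35.2% of 25505 genes. In the edgeR fit, 8 of the 10 members passed the test between lines, as did 42.9% of all genes tested. Of these, 7 were higher in PLC cells (21.1% of all genes) and 1 in Huh7 cells (21.8%). Each line is represented by its libraries at both glucose levels, so these p-values measure the spread that the additive model leaves and not the spread between cultures.

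HSPB1 differed most, 7.13-fold higher in PLC cells (log2 fold change of Huh7 against PLC -2.83, SE 0.22, adjusted p = 3.29e-07 by edgeR). HSPA1B and HSPA1A were 2.84-fold (adjusted p = 0.0111) and 2.56-fold (adjusted p = 0.00766) higher in PLC cells, and HSPA4L was 2.30-fold higher (adjusted p = 0.00105). HSPH1, DNAJB1 and HSPA8 were 1.68-fold, 1.58-fold and 1.57-fold higher in PLC cells, with adjusted p of 0.0196, 0.0260 and 0.00745. HSP90AA1 was the member higher in Huh7 cells, 1.44-fold (adjusted p = 0.0398). BAG3 and HSPE1 were not past the threshold, at 1.58-fold and 1.52-fold higher values in Huh7 cells (adjusted p = 0.0659 and 0.0607). The calls of HSP90AA1 and DNAJB1 were lost without glucose in the model (adjusted p = 0.0894 and 0.0755), and that of HSP90AA1 also with DESeq2 (adjusted p = 0.10). Of the 92 other chaperone and heat shock genes tested, 32 were higher in PLC cells and 4 in Huh7 cells by the same test. Among all genes tested these shares were 21.1% and 21.8%.

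The order of the 4 libraries was resolved by counting error for 9 of the members. HSPA1A, HSPA1B and HSPH1 had the order PLC at 5 mM, PLC at 25 mM, Huh7 at 25 mM and Huh7 at 5 mM, from high to low. At 25 mM the values of PLC cells exceeded those of Huh7 cells by 1.41-fold (1.30 to 1.53), 1.39-fold (1.21 to 1.59) and 1.31-fold (1.26 to 1.37), in that order of genes. HSPA4L and HSPB1 had PLC at 25 mM first and Huh7 at 5 mM last. BAG3 and HSP90AA1 had Huh7 at 25 mM first and PLC at 25 mM last. Only HSPE1 had neighbours whose intervals held 1, between the glucose levels of each line.

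The genes whose profile over the 4 libraries was most like that of a member were sought among 9779 genes with at least 100 reads in every library, by the distance between log2 profiles centred on their mean. For HSPA1A these were SERPINB9 (distance 0.153), MELTF (0.270) and ADM (0.310), and HSPA1B ranked 6 (0.370). For HSPA1B they were ZNF48 (0.271), ADM (0.278) and FOXO3B (0.347), and HSPA1A ranked 4. Of the other members, BAG3 had HSP90AA1 at rank 21 (0.201). A profile of 4 libraries is short, and such likeness is a description only.

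The other genes of the heat shock system were counted as lists. Of 4 regulators, HSF1 had ratios of 0.998 (0.930 to 1.07) in Huh7 cells, against 0.751 (0.692 to 0.810) in PLC cells. HSF2 had 1.02 and 0.851. HSBP1, a binding partner of HSF1, had 1.09 and 0.984, and HSF4, at 32 to 60 reads, had 0.886 and 1.01. With either size-factor scaling all 4 regulators lay under 1 in PLC cells, beside 11449 (TMM) and 11101 (DESeq2) of 21749 genes. In either line 0 of the 4 regulators were called, beside 27.8% of all genes in Huh7 cells and 43.3% in PLC cells.

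Among the other HSP70 and HSP110 genes, 5 of 7 passed the FPKM filter in Huh7 cells, as did 6 in PLC cells. HSPA2 had the highest mean log2 ratio over both lines, at 1.65 and 3.36 FPKM in Huh7 cells, against 2.08 and 6.59 FPKM in PLC cells, with ratios of 1.98 (1.73 to 2.40) and 3.07 (2.78 to 3.62). HSPA1L, which neighbours HSPA1A on chromosome 6, had ratios of 2.45 and 1.46 on 20 to 92 reads. HSPA13, a microsomal family member, had the lowest mean log2 ratio, with ratios of 0.603 and 0.461. HSPA4, the closest relative of HSPA4L, had 1.10 (1.07 to 1.14) and 0.782 (0.756 to 0.808), and the FPKM of HSPH1 relative to it was 26.7%, 31.3%, 47.4% and 48.1% in the order of libraries above. HSPA6, a strictly heat-inducible HSP70 gene, had 0 to 4 reads, at or near the floor of 3 reads.

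HSP90 and its co-chaperones also lay mostly above 1 in Huh7 cells, and mostly below 1 in PLC cells. Of 13 genes past the filter in Huh7 cells 12 had a ratio over 1, and of 14 in PLC cells 10 had a ratio under 1, beside 53.7% and 43.5% of all genes. The medians of the log2 ratio were 0.18 and -0.11, beside 0.04 and 0.11 for all genes. By their intervals, 5 of the 13 genes past the filter in both lines lay above 1 in Huh7 cells and below 1 in PLC cells. This pattern was that of 5.06% of all genes and 7.86% of protein-coding genes, shares that are not matched for read depth. The 5 were HSP90AB1, STIP1, CDC37, PTGES3 and CHORDC1. The pattern also held for 1 of 5 other HSP70 and HSP110 genes, 2 of 12 J-domain co-chaperones and 1 of 9 regulators of HSP70. It held for 2 of 8 other heat-inducible genes, 1 of 14 TRiC/CCT and prefoldin subunits and 2 of 12 endoplasmic reticulum chaperones. For the HSF regulators, small heat shock proteins and mitochondrial chaperones the count was 0. The reverse was found only for CANX, of the endoplasmic reticulum. FKBP5, CACYBP, UNC45A and PPP5C lay above 1 in both lines (14.0% of all genes), and PPID below 1 in both (8.58%). STIP1, which bridges HSP70 and HSP90, had ratios of 1.32 (1.27 to 1.37) and 0.775 (0.748 to 0.803). FKBP5, an HSP90-binding immunophilin, had 1.27 and 1.97, and CACYBP had 1.16 and 1.63. PPID had 0.867 and 0.806, and CDC37L1 had 1.11 and 0.636. TMM scaling and DESeq2 size factors left 12 of 13 over 1 in Huh7 cells, and put 11 of 14 under 1 in PLC cells. With TMM scaling 11130 of all 21864 genes lay over 1 in Huh7 cells, and 11449 of 21749 under 1 in PLC cells.

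The J-domain co-chaperones lay mostly below 1 in PLC cells, at 11 of 12 genes, while 8 of 12 lay above 1 in Huh7 cells. The shares of all genes were 43.5% and 53.7%. With TMM scaling 11 of 12 and 6 of 12 did so, beside 11449 of 21749 and 11130 of 21864 genes. DNAJA1 had ratios of 1.42 (1.37 to 1.47) and 0.982 (0.937 to 1.03). DNAJB5 had 0.973 and 1.51, DNAJB2 had 1.07 and 0.724, and DNAJB4 had 0.728 and 0.666. Among 9 regulators of HSP70, STUB1, the ubiquitin ligase that works with HSP70, had ratios of 1.43 and 1.36, TTC1 had 1.08 and 1.49, BAG1 had 0.893 and 0.953, and BAG6 had 0.901 and 0.926. In PLC cells 5 of these 9 lay over 1, beside 56.5% of all genes. With TMM scaling 3 did, beside 10300 of 21749 genes.

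Of 4 other small heat shock proteins, 2 passed the FPKM filter in Huh7 cells, as did 3 in PLC cells, and they gave both directions. HSPB8, the partner of BAG3, had 3.87 and 1.19 FPKM in Huh7 cells, against 14.6 and 4.47 FPKM in PLC cells at 5 mM and 25 mM. Its ratios were 0.325 (0.248 to 0.379) and 0.312 (0.268 to 0.350), and it was the only 1 of the 92 listed genes tested that passed the shared edgeR test (log2 fold change -1.78, SE 0.28, adjusted p = 0.0180). HSPB11 had ratios of 1.22 and 1.52. Of the other heat-inducible genes, ZFAND2A had 0.800 (0.728 to 0.877) and 0.425 (0.382 to 0.469). UBB had 1.34 and 1.52, and RGS2 had 1.36 and 0.949.

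Chaperones of other systems were compared with the members. Of the 14 subunits of the TRiC/CCT chaperonin and of prefoldin, which fold actin and tubulin, 10 lay above 1 in Huh7 cells, as did 8 in PLC cells, beside 53.7% and 56.5% of all genes. With TMM scaling 9 and 4 lay above 1, beside 11130 of 21864 and 10300 of 21749 genes. VBP1 had ratios of 1.16 and 1.23, CCT5 1.08 and 1.27, PFDN2 0.747 and 0.449 and PFDN6 0.945 and 0.832. Of 10 mitochondrial chaperones and proteases, 7 lay below 1 in each line, beside 46.3% (Huh7) and 43.5% (PLC) of all genes. With TMM scaling 10 of 10 lay below 1 in PLC cells, beside 11449 of all 21749 genes. GRPEL2 had 0.624 and 0.638, LONP1 0.700 and 0.731, GRPEL1 1.15 and 1.03 and CLPP 1.46 and 1.06. HSPD1, the partner of HSPE1, had 0.953 and 0.915, and the FPKM of HSPE1 was 8.0%, 8.76%, 7.28% and 8.80% of that of HSPD1. HSPE1 and HSPD1 share 135 exon bases on opposite strands.

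The chaperones of the endoplasmic reticulum were set beside the members as a comparison group. Of 12 genes, 0 were called in Huh7 cells, and in PLC cells 2 were called higher and 0 lower, beside 14.1% higher and 13.7% lower of all genes in Huh7 cells, and beside 26.2% higher and 17.0% lower for PLC cells. These were SDF2L1, with a ratio of 2.13 (1.94 to 2.35), and PDIA4, with 1.60 (1.55 to 1.64). Their ratios in Huh7 cells were 1.47 and 1.14. HYOU1, the HSP110 protein of this compartment, had 0.961 and 0.867, and DNAJB9 had 0.818 and 0.763. The median log2 ratio of the 12 was 0.11 in Huh7 cells, against 0.18 in PLC cells, beside 0.33 and -0.23 for the 10 heat shock protein genes. With TMM scaling the median in PLC cells was 0.02. The difference between the groups was not tested.

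How far reads could be lost to or gained from other copies differed between members. The share of repeated windows was 24.1% in HSPA8, 18.8% in HSPE1, 16.6% in HSPA4L, 15.8% in HSPB1 and 13.6% in DNAJB1. The 17 pseudogenes of HSPA8 held reads equal to 0.505% to 0.900% of those of HSPA8. HSPE1-MOB4, a read-through gene, shares 192 exon bases with HSPE1 on the same strand and had 0 reads in every library.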

How the data were processed

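The authors sequenced rRNA-depleted, directional libraries of Huh7 and PLC cells, with 1 library per cell line and glucose level. The deposited values are counts, the number of reads per gene, without normalization. The submitters' processing notes name HISAT2, featureCounts and hg38. The annotation release, the strand setting and the handling of reads that match several places are not given in the sources used here. Of 59657 data lines, 59652 genes entered the analysis, without 5 lines of a broken entry for ANK2. The floor of 3 reads stands for 0.0991 to 0.187 CPM.

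To obtain FPKM, each count was scaled by gene length and by the total of counted reads. Ratios of 25 mM to 5 mM were taken after adding 0.1 to both FPKM values. A gene with an FPKM over 0.5 in at least 1 of both libraries was called when its ratio was over 1.5 or under 0.67. Intervals are exact Clopper-Pearson 95% intervals without the added 0.1, and cover counting error only. The additive model of cell line and glucose was fitted to all 4 libraries with the quasi-likelihood test of edgeR 4.0.16 (R 4.3.3), with TMM scaling, filterByExpr and Benjamini-Hochberg adjustment over 23217 genes. Its threshold was an adjusted p of 0.05. It leaves 1 residual degree of freedom per gene, and the cell lines are not replicate cultures. DESeq2 1.42.0 and limma 3.58.1 (voom) served as alternatives. The scripts were tested on simulated data. Promoters of RefSeq (GRCh38.p14) were searched for motifs. Repeated windows were sought in the exons given with the deposited counts. GENCODE release 44 gave the gene classes and the canonical transcript lengths.

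The 10 members and the gene lists were chosen with earlier results of these data known. Genes outside the 10 were named by rule, the highest and the lowest pair of each list by mean log2 ratio over both lines, of which 1 gene is not reported here; others named below were chosen after their values were seen.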

Additional observations from a re-analysis of the deposited data

Results flagged for a closer look

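The interval of the glucose ratio lay above 1 in Huh7 cells and below 1 in PLC cells for 5 of the 10 members. This ratio is that of 25 mM to 5 mM in the single library pair of each line, and the interval covers counting error only. Among the genes named by rule and reported here, HSPA4 had the same pattern of intervals. Others, such as DNAJB2 and CDC37L1, had the pattern by the ratio alone. The ratio in Huh7 cells divided by that in PLC cells was 3.26 for HSPA1A, 4.11 for HSPA1B, 1.63 for HSPH1, 1.4 for HSP90AA1 and 1.7 for BAG3. For HSPA4 it was 1.41. No test was made of these differences, because an interaction leaves no residual degree of freedom with 4 libraries. The spread between cultures is unknown in both lines.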

How the results depend on the processing

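The labels carry no replicate numbers, so samples could be paired only by cell line, which was the block of the shared glucose test. With 1 library for each line and glucose level, no library was left out in turn. No called result reversed under the alternatives, and the ratio of HSPE1 in PLC cells crossed 1 as given above. Members called higher in Huh7 cells, 2 in the main analysis, were 0 with thresholds of 2 and 0.5 and 1 with HSPA1A and HSPA1B summed. Members called lower in PLC cells, also 2, were 1 in each of these settings. The median log2 ratio of the members in PLC cells, -0.23, was -0.39 with TMM scaling, -0.36 with DESeq2 size factors and -0.31 without HSPE1. The ratio of HSPA1A stayed between 1.71 and 1.80 in Huh7 cells, and between 0.451 and 0.556 in PLC cells.

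Over all genes, the shared glucose test called 88, against 526 without a filter on low counts, 27 with at least 10 counts in every library, 197 with DESeq2 and 0 without the cell line in the model (52 at an unadjusted p under 0.05), and the members called were 0 in each. The line test called 9969 genes, against 6340 with at least 10 counts in every library, where HSPE1 passed (adjusted p = 0.0471 by edgeR). The removal of the GC and length trend and the canonical lengths were chosen after seeing the data. Depth limits HSPA1B most among the members, with 211 reads in Huh7 cells at 5 mM.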
